A study of Mus musculus with 18 samples.

Results

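Mouse chromosome 8 was examined gene by gene in iPSC lines lacking Dnmt3a and Dnmt3b function and in control lines, to describe how far its RNA levels set 1 clone, named 8, apart from the other lines. The genes were taken by position: every probe placed on chromosome 8 by the arrays' annotation (build mm7) and well above background in at least 18 of 36 channels, with the brightest probe standing for a gene name. Names beginning Rpl, Rps, Nduf, Uqcr, Atp5 or Cox, and Zfp42, Col4a1 and Col4a2, were left out. This gave 1115 genes of 23636 detected genes, beside 21029 genes of the other autosomes. Of 1314 gene names on the chromosome, 189 were not detected and 10 were left out by name. Of the 1115 genes, 882 were above background in all 36 channels. Just inside the threshold, with 18 channels, lay 9 genes (Mtnr1a and Slc10a2 among them), and just outside it, with 17 channels, lay 6 names (F10, Nat1 and Defb37 among them). RefSeq (GRCm38.p6) gave a chromosome for 896 of the genes and placed 893 of them on chromosome 8.

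The data were 18 Agilent 2-colour arrays of total RNA. Clones 8, A6 and B2 of Dnmt3ab-deficient iPSC were each hybridised beside embryonic fibroblasts (MEF) and beside V6.5 embryonic stem cells. The same clones, labelled as having some signs of differentiation and called differentiating here, were each hybridised beside control iPSC lines 3, 4, 5 and 6. All iPSC had grown on irradiated MEF feeders and were passaged on gelatin without new feeders before RNA was taken. The submitters marked the differentiating, MEF and V6.5 channels as left out of their own published statistics. The labels do not say that repeat channels came from separate cultures, so the spread between arrays may be technical. The labels do not state sex, age, genetic background, or how the 2 genes were inactivated. Deficient and control lines were scanned on different days, and clone 8 had a slide to itself on both days.

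An extra copy or a loss of a chromosome changes the RNA of many of its genes by a similar, modest ratio, and such changes are known from cultured pluripotent stem cells. Chromosome 8 is among the chromosomes for which this is known in mouse embryonic stem cells. A ratio of 3 copies to 2 is 1.5, or 0.585 on the log2 scale. DNA copy number was not measured here, and its part in the values below was not tested.

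The deviation of a gene in clone 8 is its log2 level there minus the mean of A6 and B2 in the same state. The chromosome 8 level of a line is the median deviation of the 1115 genes minus the median over the genes of the other autosomes. The genes were chosen because clone 8 stood apart on them, so these values are given as a description, with no test. A matched set is the 3 arrays, 1 for each clone, that share a partner RNA, which gives 2 sets for the deficient state and 4 for the differentiating state.

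Dnmt3a, an enzyme that places DNA methylation on unmethylated sites, checks the labels. Its log2 level was 8.97, 9.85 and 9.76 in deficient clones 8, A6 and B2, 9.58, 9.34 and 9.12 in the same clones differentiating, and 11.35, 11.19, 10.53 and 11.02 in control lines 3 to 6. The clones and the control lines did not overlap for Dnmt3a. V6.5 cells read 11.51 and MEF 9.81, the latter within the range of the clones, so a low level alone does not mark the clones. Dnmt3b, the partner enzyme of Dnmt3a, read 12.33 to 13.49 in the 6 clone samples. Control line 3, at 13.40, and line 6, at 12.41, lay within that range, so clones and control lines overlapped. Whether either probe lies in a part of the gene changed by the inactivation is not known here.

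The array of differentiating clone 8 beside control line 5 stood apart. Dnmt3a differed between the clone and the control line by 1.42 to 2.32 log2 units on the other 11 arrays of that kind and by 0.08 on this one. V6.5 cells read 12.04, 11.55 and 10.97 for Dnmt3a over their arrays, so repeat channels can vary. The channel labelled line 5 read 9.85 for Dnmt3a on the array of clone 8 and line 5, against 10.98 and 11.13 on its other arrays. The interquartile range of the log ratio over brighter genes was 0.257, against 0.352 to 0.581 on the other 11. Its median net signal, 88.6 in Cy3 and 133 in Cy5, was the lowest of the 18 arrays in each dye. Its clone 8 channel read 9.77, against 9.06 to 9.47 on the other 3 arrays of differentiating clone 8. The levels of clone 8 and of the control lines, and the counts of genes past 0.3 log2 units, are given with and without this array. Values by autosome, by bin and by role list include it.

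Clone 8 had higher RNA from chromosome 8 than the other clones in both states. The chromosome 8 level of clone 8 was 0.118 in the deficient state and 0.096 in the differentiating state. A6 lay at -0.049 and -0.048 and B2 at -0.056 and -0.053, partly because clone 8 belongs to the lines they are set against. Set against each other, A6 and B2 differed by 0.007 and 0.001. Clone 8 was above A6 by 0.108 and above B2 by 0.122 in the deficient state, and by 0.092 and 0.095 in the differentiating state. Over the matched sets clone 8 stood at 0.132 ± 0.028 (mean ± SD, n = 2) in the deficient state and at 0.101 ± 0.063 (n = 4) in the differentiating state. The lowest of the 4 differentiating values, 0.010, came from the set with line 5, and the other 3 ran from 0.113 to 0.155. No value of A6 or B2 reached 0.010 in any set, the highest being 0.005. Without the array of clone 8 and line 5 the differentiating level was 0.113.

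The measured difference was larger in genes with a bright signal. Genes were split by rank of mean log2 signal into 5 classes of like size, with limits at 7.56, 8.30, 9.60 and 11.54, a split made after the data had been seen. In the deficient state the level of clone 8 was 0.023, -0.001, 0.092, 0.287 and 0.316 from the dimmest to the brightest class. In the differentiating state it was 0.017, 0.017, 0.066, 0.232 and 0.306, or 0.021, 0.025, 0.063, 0.295 and 0.390 without the array in doubt. A6 and B2 stood at -0.164 and -0.166 in the brightest class of the deficient state, each against a mean that holds clone 8. Set against each other in that class, A6 and B2 differed by -0.0001. The 506 genes of the 2 brightest classes are called brighter genes below. The background correction added an offset to every intensity, which shrinks log ratios most where the signal is low. The classes therefore cannot tell whether dim genes differed less in RNA.

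**Figure D1:**
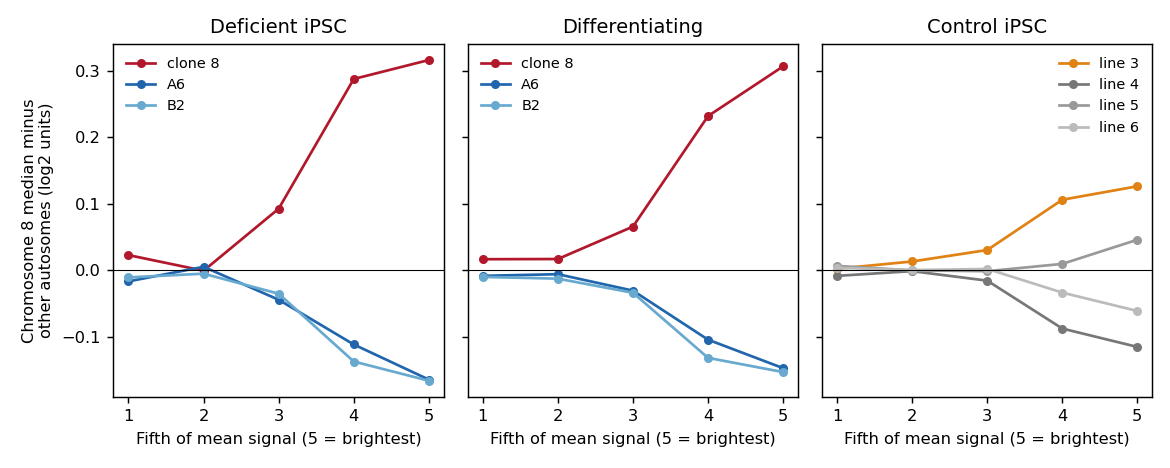
Chromosome 8 level (median minus other autosomes, log2 units, y axis) by class of mean signal (x axis, 5 brightest) for the clones in the 2 states and the 4 control lines, each against the other lines of its state. Lines join classes. Clone 8 climbs from 0.023 to 0.316 in the deficient state, and control line 3 climbs to 0.126.

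Over the 506 brighter genes clone 8 stood at 0.294 in the deficient state and at 0.275 in the differentiating state (0.348 without the array of clone 8 and line 5). The 2 deficient sets gave 0.301 beside MEF and 0.286 beside V6.5 cells, a mean of 0.294 ± 0.011 (SD, n = 2). The 4 differentiating sets gave 0.342 beside line 3, 0.388 beside line 4, 0.003 beside line 5 and 0.294 beside line 6, a mean of 0.256 ± 0.174 (SD, n = 4). In the set with line 5, A6 stood at -0.035 and B2 at 0.011, so clone 8 was above both in 5 of the 6 sets and between them in the set that holds the array in doubt. The order did not rest on A6 and B2 alone. Against V6.5 cells clone 8 was 0.180 higher, while A6 and B2 were 0.095 and 0.112 lower, so V6.5 cells lay between them. Against the mean of the 4 control lines, on the same scan day, differentiating clone 8 was 0.218 higher (0.278 without the array in doubt), A6 0.028 lower and B2 0.062 lower.

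**Figure D2:**
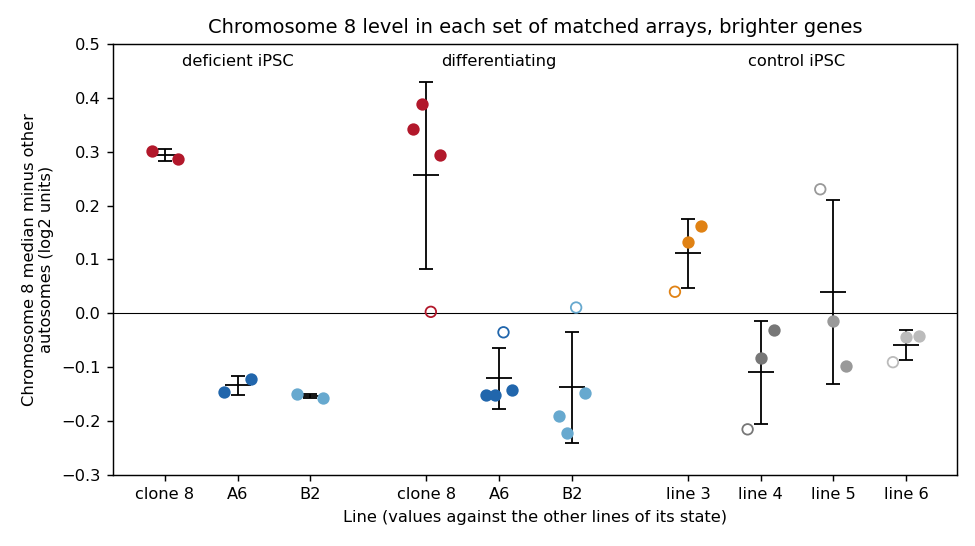
Chromosome 8 level of the 506 brighter genes (log2 units, y axis) for each line (x axis), 1 point per matched set for clones and 1 per slide for control lines, with mean ± SD; open points involve the array of clone 8 and line 5. Both deficient points of clone 8 lie at 0.286 or above, and 3 of its 4 differentiating points at 0.294 or above.

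Control line 3 had the next highest chromosome 8 level. Against the other 3 control lines its brighter genes stood at 0.117, line 5 at 0.025, line 6 at -0.049 and line 4 at -0.105. On the slides of clones A6 and B2 line 3 read 0.132 and 0.162, and on the slide of clone 8, which holds the array in doubt, 0.040. Without that array line 3 stood at 0.168 and lines 4, 5 and 6 at -0.072, -0.073 and -0.040, so the order of those 3 changed while line 3 stayed first. Of the 506 brighter genes, 43.1% were highest in line 3 among the control lines, against 18.5% of brighter genes on other autosomes. Without that array the shares were 60.3% and 22.3%. On the scale of the control mean the order of the differentiating state was clone 8 (0.218), line 3 (0.088), line 5 (0.018), A6 (-0.028), line 6 (-0.037), B2 (-0.062) and line 4 (-0.079). Without that array it was clone 8 (0.278), line 3 (0.126), line 6 (-0.030), A6 (-0.038), line 4 (-0.054), line 5 (-0.055) and B2 (-0.066). With all arrays the 5 samples after line 3 ran from -0.079 to 0.018. Their order changed without that array, so it was not resolved. The 4 arrays of A6 and of B2 had SDs of 0.071 and 0.077 against their partners, a spread that includes differences between the control lines.

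Chromosome 8 was the autosome with the largest departure in clone 8. Over brighter genes the other 18 autosomes ran from -0.106 (chromosome 3) to 0.019 (chromosome 10) in deficient clone 8 and from -0.092 (chromosome 3) to 0.035 (chromosome 14) in differentiating clone 8. Their SD was 0.026 and 0.025. The low value of chromosome 3 came beside a high value of B2, which is 1 of the lines clone 8 is set against: B2 stood at 0.163 and 0.149 there. In line 3 the other 18 autosomes ran from -0.028 to 0.017, below its chromosome 8 value of 0.117.

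**Figure D3:**
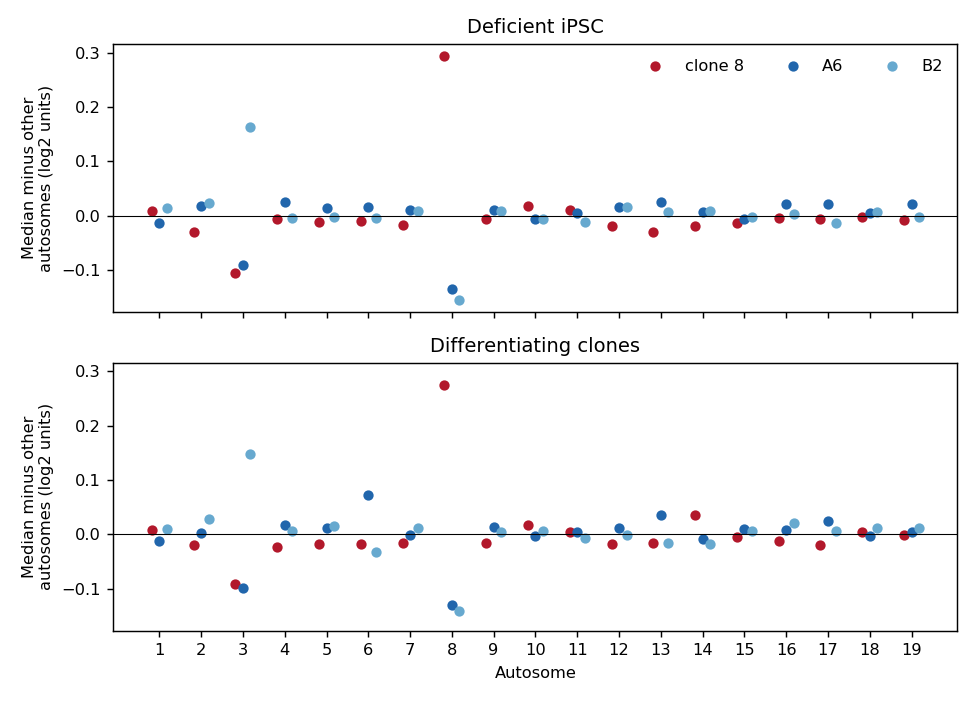
Median of brighter genes on each autosome minus that of the other autosomes (log2 units, y axis) for the 19 autosomes (x axis) in clones 8, A6 and B2, each against the other clones, in the 2 states. Chromosome 8 of clone 8 is at 0.294 and 0.275; chromosome 3 of B2, at 0.163 and 0.149, is the next highest point.

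The higher level was spread along the whole chromosome. Over all 1115 genes each of the 13 bins of 10 Mb (36 to 168 genes a bin) had a median above 0 in clone 8, from 0.024 to 0.195 in the deficient state and from 0.046 to 0.139 in the differentiating state. Over brighter genes the 13 bins ran from 0.090 to 0.369 and from 0.211 to 0.364, and 1 bin held fewer than 20 genes. The lowest deficient bin was the first, at the start of the chromosome. A6 and B2, each set against lines that include clone 8, were below 0 in all 13 bins in both states. Line 3 was above 0 in all 13 bins, from 0.082 to 0.163 over brighter genes. With bins of 5 Mb, 25 of 26 were above 0 in clone 8 in each state, and 7 bins held fewer than 20 genes. The lowest was -0.012 in the deficient state and -0.014 in the differentiating state.

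**Figure D4:**
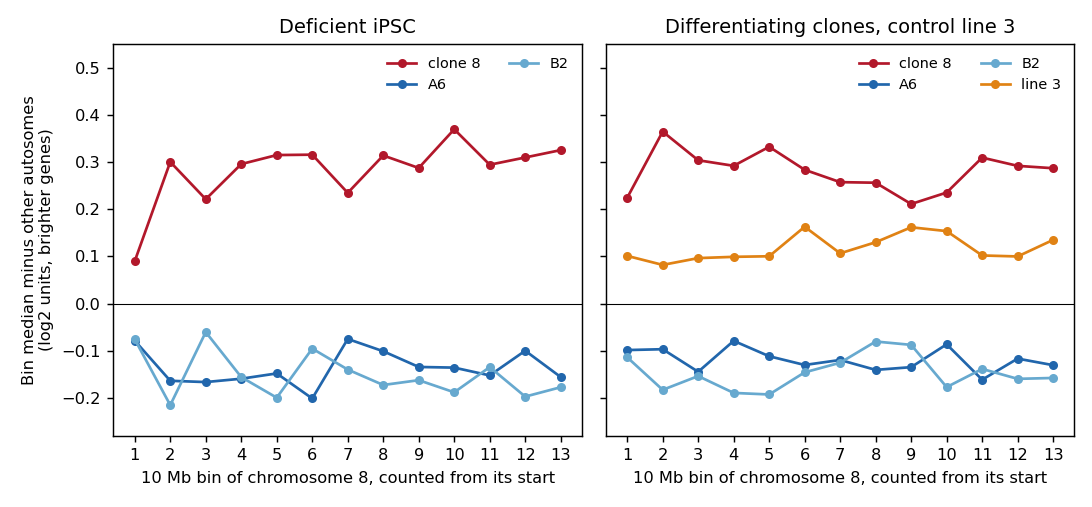
Median of brighter genes in each 10 Mb bin of chromosome 8 minus the other autosomes (log2 units, y axis) against bin number (x axis) for the clones in both states, with control line 3 beside the differentiating clones. Clone 8 runs between 0.090 and 0.369 in the deficient state and between 0.211 and 0.364 in the differentiating state. A6 and B2, each set against lines that include clone 8, lie below 0 in every bin.

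Most single genes were higher in clone 8, by a small amount. Of the 506 brighter genes, 83.2% were higher in clone 8 than the mean of A6 and B2 in the deficient state and 86.6% in the differentiating state, against 35.8% and 45.0% of brighter genes on other autosomes. Without the array in doubt the differentiating share was 91.5%, against 44.6%. The middle 50% of deviations ran from 0.08 to 0.36 in the deficient state and from 0.12 to 0.38 in the differentiating state. Clone 8 was the highest of the 3 clones in both states for 66.4% of the brighter genes, against 12.2% elsewhere. A deviation of at least 0.3 log2 units was seen in 220 of the 1115 genes in the deficient state (19.7%), against 4.34% of all detected genes. It was seen in 229 in the differentiating state (20.5%), against 5.67% of all genes, and in 89 in both states, against 1.51%. Without the array in doubt it was seen in 321 in the differentiating state (28.8%), against 6.17% of genes on other autosomes. In the other direction, 36 genes were at least 0.3 lower in the deficient state and 19 in the differentiating state, against 9.43% and 6.81% of all genes, with 6 in both states against 2.39%. Clone 8 was higher in all 6 matched sets for 205 genes (18.4%), against 4.22% of all genes, and lower in all 6 for 13, against 8.11%. Without the set of line 5 it was higher in the other 5 sets for 410 genes (36.8%), against 8.75% of all genes. Across genes the deviations of the 2 states correlated at 0.33 (Pearson) on chromosome 8, n = 1115, and at 0.33 on the other autosomes, n = 21029. Both states share the clones, and genes are not independent of each other. Of 377 genes with several detected probes, 275 had every probe above 0 in clone 8, 34 every probe below 0 and 68 probes of both signs. No such count is given for other autosomes, so these numbers have no background to be read against.

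Promoter sequence was a property the choice of genes did not use. Dnmt3a and Dnmt3b methylate cytosines that precede a guanine, so CG pairs were counted in the 250 bases before the start of each gene (RefSeq, GRCm38.p6), which 614 of the genes had. CG reads the same on both strands. Of these 614 genes 66.4% had at least 10 CG pairs, against 59.3% of genes on other autosomes and 38.2% of all promoters in the table. Over brighter genes, the 281 with at least 10 CG pairs had median deviations of 0.25 and 0.27 in the deficient and differentiating states, and the 60 with fewer had 0.11 and 0.18. Signal was not matched between these groups, and no such split is given for other autosomes. The promoters of 3 genes are shown, 5′ to 3′, as the ends of the named genes by mean deviation: Rhou (chr8:123653679-123653928, plus strand, 36 CG pairs) and Slc25a4 (chr8:46211063-46211312, minus strand, 18), the highest among genes higher in all 6 sets, and Pcnx2 (chr8:125898318-125898567, minus strand, 7), the lowest among genes lower in all 6. These 3 genes differ in brightness too, with mean log2 signals of 11.6 for Rhou, 16.0 for Slc25a4 and 8.2 for Pcnx2. The CG counts of the 2 sides met: Gas6, among the higher genes, had 10, and Gabarapl2, among the lower genes, had 12. Capitals mark CG pairs.
Rhou: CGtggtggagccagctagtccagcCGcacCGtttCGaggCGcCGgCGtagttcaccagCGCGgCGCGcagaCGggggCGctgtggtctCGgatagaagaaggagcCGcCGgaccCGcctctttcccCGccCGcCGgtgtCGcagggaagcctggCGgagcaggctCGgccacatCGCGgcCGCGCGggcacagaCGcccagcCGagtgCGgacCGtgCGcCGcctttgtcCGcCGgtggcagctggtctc
Slc25a4: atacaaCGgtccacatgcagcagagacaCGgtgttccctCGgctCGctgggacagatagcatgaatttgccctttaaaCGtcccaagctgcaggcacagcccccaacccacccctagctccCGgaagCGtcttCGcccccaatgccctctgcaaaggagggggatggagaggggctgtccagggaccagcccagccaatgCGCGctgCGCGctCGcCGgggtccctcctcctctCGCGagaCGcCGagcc
Pcnx2: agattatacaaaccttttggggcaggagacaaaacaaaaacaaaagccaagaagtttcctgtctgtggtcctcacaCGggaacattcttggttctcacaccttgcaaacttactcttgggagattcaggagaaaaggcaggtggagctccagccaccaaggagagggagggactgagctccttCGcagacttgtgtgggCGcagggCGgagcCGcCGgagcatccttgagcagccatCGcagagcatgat
No methylation was measured, and these counts describe the sequence alone.

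The 10 genes with the largest mean deviation among those higher in clone 8 in all 6 matched sets were Rhou, Slc25a4, Sfrp1, Arl2bp, Mtmr7, Galnt2, Cdc16, Gas6, Exosc6 and Dusp4. Their probes lay from 13439664 to 122932733 of chromosome 8 (mm7), over most of the chromosome, with Gas6 and Cdc16 close together. Rhou encodes a small GTPase (probe at 122250955 to 122251014). Its log2 level was 11.16 in deficient clone 8 and 10.59 and 10.49 in A6 and B2. In the differentiating state it was 12.44 in clone 8 and 11.59 and 11.49 in A6 and B2. The control lines 3 to 6 read 12.27, 12.07, 12.15 and 11.55. Clone 8 was therefore above both clones in each state and above every control line in the differentiating state only. Its mean deviation was a ratio of 1.69, and its differentiating deviation went from 0.90 to 1.15 without the array in doubt.

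Slc25a4 encodes the mitochondrial carrier that exchanges ADP and ATP (probe at 44985343 to 44985402). It read 16.32 in deficient clone 8 against 15.54 and 15.56, and 16.29 in differentiating clone 8 against 15.70 and 15.63. Control lines 3 to 6 read 15.89, 15.72, 15.77 and 16.14, all below clone 8 in both states. V6.5 cells, scanned with deficient clone 8, read 16.26, only 0.07 below it. Galnt2, which starts mucin-type O-glycosylation of proteins, read 13.80 against 13.16 and 13.04, and 13.47 against 12.89 and 12.84. The control lines lay from 13.02 to 13.21 and did not reach clone 8. V6.5 cells read 13.72, only 0.08 below deficient clone 8. Cdc16, a subunit of the anaphase-promoting complex, read 13.73 against 13.18 and 13.30, and 14.20 against 13.32 and 13.47. Exosc6, a subunit of the RNA exosome, deviated by 0.50 and 0.75, but its second probe stood at -0.05 on average while the one used stood at 0.62.

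Sfrp1, a secreted antagonist of Wnt signalling, owed its rank to the deficient state, with 11.24 in clone 8 against 10.30 and 9.84. In the differentiating state it read 9.90 against 9.65 and 9.76, a deviation of 0.19. V6.5 cells read 11.60 for Sfrp1, above deficient clone 8. For the rest of the 10 genes they read below deficient clone 8, by 0.07 (Slc25a4) to 0.83 (Mtmr7). Cotl1, an actin-binding protein, had a larger mean deviation over both states than the 10, at 1.15 and 1.19, but missed the rule because the set with line 5 gave -0.63. It read 14.24 in deficient clone 8 against 13.21 and 12.97, and 15.56 in differentiating clone 8 against 14.58 and 14.17. Without the array in doubt its differentiating deviation was 1.74.

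**Figure D5:**
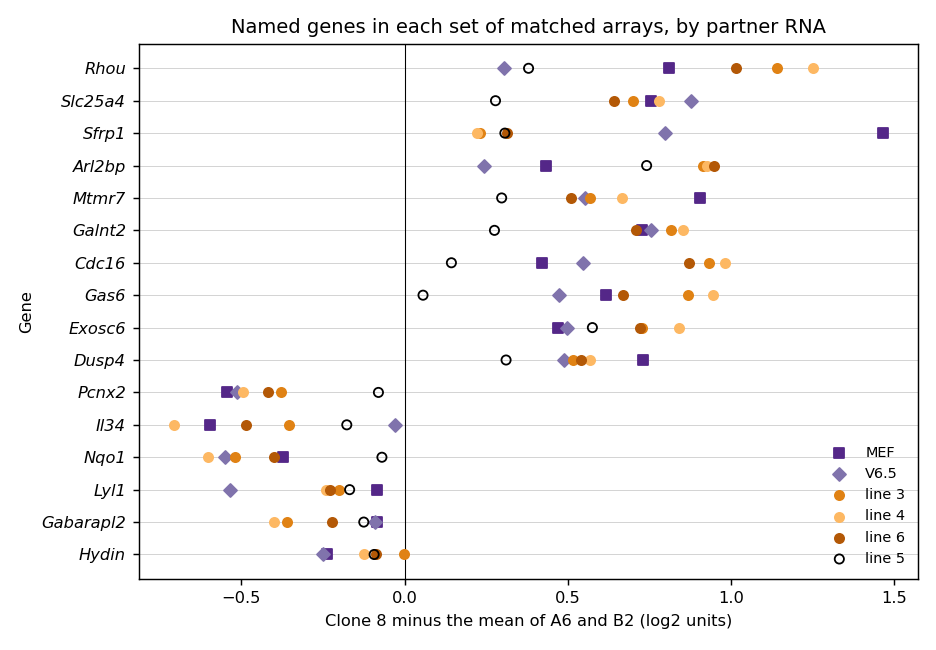
Clone 8 minus the mean of A6 and B2 (log2 units, x axis) for the 10 genes furthest above 0 and the 6 furthest below 0 (y axis), 1 point for each matched set, marked by its partner RNA. Slc25a4 runs from 0.28 to 0.88, and the open point of line 5 is the lowest of the 6 for Slc25a4, Galnt2, Cdc16 and Gas6.

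Only 13 genes were lower in clone 8 in all 6 sets, and the 6 named by the rule were Pcnx2, Il34, Nqo1, Lyl1, Gabarapl2 and Hydin. Nqo1, a quinone reductase (probe at 105988683 to 105988742), read 11.71 in deficient clone 8 against 12.40 and 11.86, and 11.87 in the differentiating state against 12.46 and 11.94. Clone 8 lay closer to B2 than to A6 in both states. Il34, a cytokine that signals through the receptor of colony-stimulating factor, showed the same order, with 8.92 in differentiating clone 8 against 9.64 in A6 and 9.07 in B2. For Pcnx2 both other clones were higher by a like amount, at 8.27 against 8.84 and 8.76, and at 8.00 against 8.36 and 8.33. Its second probe stood at -0.01 over both states, where the one used stood at -0.44.

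Genes were also grouped by role, in 10 lists of chromosome 8 genes. No list is set against another, and each median is read beside the medians of 0.09 (deficient) and 0.10 (differentiating) over all 1115 genes and of 0.23 and 0.25 over the 506 brighter genes. Of all 1115 genes 18.4%, and of the brighter 506 genes 30.0%, were higher in all 6 sets. Brighter genes made up 8 of 20 transcription factors, 5 of 15 receptors, ligands and adaptors and 3 of 8 cadherins. They made up 11 of 13 replication and repair, 8 of 9 cell cycle, 13 of 15 chromatin and 16 of 16 RNA processing genes. The remaining lists held 10 of 12 mitochondrial, 15 of 17 ubiquitin and 7 of 9 metal and redox genes. Of 13 measured DNA replication and repair genes 6 were higher in clone 8 in all 6 sets and 0 lower. The median deviations were 0.21 and 0.23. Orc6, a subunit of the origin recognition complex, deviated by 0.16 and 0.31, and Cdt1, which licenses origins, by 0.43 and 0.10. Of 9 cell cycle and centromere genes 2 were higher in all sets, Tfdp1, the partner of E2F factors (0.33 and 0.42), and Anapc10 (0.17 and 0.24). Of 15 chromatin genes and cofactors 6 were higher in all sets and 0 lower, with medians of 0.30 and 0.27. Hmgb2, a DNA-bending protein, read 16.85 in deficient clone 8 against 16.27 and 16.25. Ctcf, the insulator-binding protein, read 12.71 against 12.48 and 12.33, and deviated by 0.26 in the differentiating state.

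Of 20 sequence-specific transcription factors 7 were higher in all sets. Jund, a component of AP-1, deviated by 0.35 and 0.75. Klf2, a factor of the pluripotency network, changed sign between states, with 16.83 in deficient clone 8 against 15.90 and 15.87, and 15.85 in differentiating clone 8 against 16.05 and 16.31. Of 12 mitochondrial, metabolic and cell death genes 4 were higher in all sets, with medians of 0.40 and 0.31. Beside Slc25a4 these were Tomm20, a receptor of the outer membrane import complex (0.46 and 0.51), Vdac3, an outer membrane channel (0.55 and 0.47), and Aprt, an adenine salvage enzyme (0.42 and 0.55). The second probes of Vdac3 and Aprt showed no such difference, with means over both states of 0.01 and -0.02. Of 17 ubiquitin, proteasome and vesicle sorting genes 4 were higher in all sets and 1, Gabarapl2, lower, with medians of 0.37 and 0.30. Lamp1, a lysosomal membrane protein, deviated by 0.63 and 0.81, but not upwards in every set. Of 16 RNA processing and translation genes 7 were higher in all sets, with medians of 0.27 and 0.26, among them Eif4ebp1, an inhibitor of cap-dependent translation (0.27 and 0.26). Of 9 metal and redox genes 4 were higher in all sets, with Gsr, glutathione reductase, at 0.56 and 0.24, and 1, Nqo1, lower. Of 15 receptors, ligands and adaptors 3 were higher in all sets, with Gas6, the ligand of the TAM receptors, at 0.58 and 0.70. Of 8 cadherins 0 were higher in all sets, with medians of -0.01 and 0.15. Cdh1, E-cadherin, deviated by 0.21 and 0.18.

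Markers of another cell type moved with clone 8 as well. The mean of 8 endoderm markers was 9.89 in deficient clone 8 against 8.36 and 8.31 in A6 and B2, and 10.89 in differentiating clone 8 against 10.24 and 9.92. Cubn, an endocytic receptor of visceral endoderm, read 12.8 in deficient clone 8 against 9.1 and 9.0, while Afp, at 7.4 to 7.8 in all clones, was near background. The mean of 8 fibroblast markers was 10.41 in deficient clone 8 against 10.46 and 10.55, and 11.31 in differentiating clone 8 against 11.04 and 10.80. The mean of 6 pluripotency markers was 14.77 against 14.60 and 14.57 in the deficient state, and lower in clone 8, at 13.85 against 14.14 and 14.16, in the differentiating state. The part of these cells in the chromosome 8 values was not tested. In such bulk samples more cells of a type and more RNA per cell cannot be told apart.

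The groups were then compared in 3 ways, gene by gene over lines, with limma. P-values were adjusted over all 23636 genes (Benjamini-Hochberg), with calls made below 0.05. Between the 3 deficient clones and the 4 control lines 178 chromosome 8 genes were higher and 311 lower (43.9%), against 47.0% of all genes, 14.8% higher and 32.2% lower. The median difference was -0.05 over the chromosome and -0.07 over all genes. The 2 groups were scanned on different days, so day and genotype cannot be told apart. With no normalization between arrays the balance turned, to 802 higher and 24 lower, with a median of 0.42 over all genes. All 23636 genes turned likewise, to 17317 higher and 640 lower. The gene with the largest rise was Ushbp1, a partner of the scaffold protein harmonin, at 10.72, 10.06 and 10.09 in deficient clones 8, A6 and B2 and at 7.60, 7.23, 7.82 and 7.83 in control lines 3 to 6, a difference of 2.67 ± 0.21 (SE; adjusted p = 0.000276). The groups did not overlap. Glg1, Fbxw9 and Ddx19b rose by 1.20, 1.06 and 1.00. The largest falls were Trim67 (-1.55), Dusp4, a phosphatase of MAP kinases (-1.55), Ncan (-1.33) and Rhou (-1.26). V6.5 cells, on the arrays of the deficient clones, read 8.16, 9.95, 9.82 and 10.87 for these falls, below every control line. They read 9.05, 13.07 and 11.24 for Ushbp1, Glg1 and Fbxw9, above every control line, and 12.18 for Ddx19b, within the control lines. Apart from Ddx19b, shifts in these directions were thus not limited to the deficient clones. Of the 13 replication and repair genes 6 rose and 0 fell, and of the 8 cadherins 0 rose and 4 fell. The cell cycle (4 and 0), receptor (4 and 0) and ubiquitin (5 and 0) lists only rose. The metal and redox list (0 and 2) only fell, and the remaining lists moved both ways. Without clone 8 the counts were 138 and 315, against 3442 and 6784 of all 23636 genes.

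Between the differentiating clones and the control lines, which shared arrays, 27 chromosome 8 genes were higher and 19 lower (4.13%), against 5.5% of all genes, 2.63% higher and 2.87% lower. Ushbp1 rose again, by 1.76 ± 0.24 (SE; adjusted p = 0.0259). Ddx19b, an RNA helicase of messenger RNA export, read 13.27, 13.59 and 13.21 in clones 8, A6 and B2 and 12.03, 11.96, 12.52 and 12.14 in control lines 3 to 6, a rise of 1.19 ± 0.16 (SE; adjusted p = 0.0256). Gdf15, a stress-induced cytokine, rose by 0.89 and Mtus1 by 0.89. Acta1, skeletal muscle actin, fell by 1.34, Atp11a, a phospholipid flippase, by 0.89 and Adcy7 by 0.87. The probe named Sfn fell by 1.59, but RefSeq places Sfn on chromosome 4. Without clone 8 the counts were 11 higher and 24 lower, against 655 and 448 of all 23636 genes. Without A6, B2 or line 3 both fell to 0, on the chromosome and over all genes. Unadjusted p in limma was then under 0.05 for 147, 155 and 173 chromosome 8 genes, against 3674, 4082 and 4137 of all genes. The chromosome 8 counts were 0 and 1 without line 4, against 4 and 20 of all genes. They were 57 and 63 without line 6, against 1562 and 1954. Without the array of clone 8 and line 5 they were 37 and 29, against 1121 and 1146. With slide as a block they were 126 and 68, against 2241 and 2625. That setting tests 1 mean ratio per clone over the same control lines. The spread between control lines is therefore not in its error. Among the role lists 2 genes were higher, Rbl2 and Acsl1, and 1, Usp10, lower.

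Between the differentiating and the deficient state of the same clones 372 genes were higher and 225 lower (53.5%), against 54.2% of all genes, 35.0% higher and 19.2% lower. Scan day and state cannot be told apart here. With no normalization between arrays the balance turned, to 49 higher and 847 lower, as the median over all genes went from 0.08 to -0.415. All 23636 genes turned likewise, to 1008 higher and 17959 lower. Dusp4 read 10.50, 9.95 and 9.71 in deficient and 11.89, 11.39 and 11.25 in differentiating clones 8, A6 and B2, a rise of 1.46 ± 0.05 (SE; adjusted p = 0.00409). Lpar2, a receptor of lysophosphatidic acid, Cotl1 and Plpp5 rose by 1.35, 1.30 and 1.29. Arglu1 fell by 1.38, Glg1 by 1.05, Rnf150 by 1.03 and Insl3, an insulin-like hormone, by 1.00. Of the 9 cell cycle and centromere genes 0 rose and 6 fell, and of the 8 cadherins 4 rose and 0 fell. Every other role list had genes that rose and genes that fell, such as 6 and 8 transcription factors. The calls ended without A6, at 0 and 0 on the chromosome and over all genes. Unadjusted p in limma was then under 0.05 for 469 chromosome 8 genes and 10081 of all genes. Without B2 the chromosome 8 counts were 182 and 146, against 4256 and 2609 of all genes.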

How the data were processed

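RNA of 36 channels on 18 Agilent arrays was measured. Per the file headers, the scanner's Feature Extraction software (version 10.1.1.1) gave each spot's mean and background intensity. The deposited value table holds log2 ratios of clone over partner, as a comparison with the intensities showed, with its normalization not stated; the submitters' processing notes name limma. Intensities were corrected with normexp (offset 50), loess and Aquantile in limma 3.58.1 (R 4.3.3), without outlier spots. A separate-channel fit (intra-spot correlation 0.769) gave 1 log2 value for each line and state, with dye as a term. No spot was saturated, and 69.7% to 92.6% of spots were well above background; the number of lines limits precision.

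Genes and lists were chosen with earlier results of these data known. Named genes are the 10 highest and 6 lowest mean deviations of clone 8 with 1 sign in all 6 matched sets, examples among the 4 brightest of each list, and 4 called genes in each direction for each limma comparison; others were picked after their values were seen. The difference between channels numbered 1 and 2 correlated at -0.30 to 0 between deficient clones and control lines. Deviations of same-numbered channels correlated at 0.016 to 0.458 among control lines and at 0.525 to 0.614 among deficient clones. The number was not taken to pair clones with control lines. Alternatives are given in the closing section.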

Additional observations from a re-analysis of the deposited data

Results flagged for a closer look

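Dusp4, named above, had 1 control line far from the other 3: the gap between line 6 (11.89) and the next line (11.52) was 0.896 of the range of the 4 lines, above the 95% limit of Dixon's test for 4 values. Of 38 groups of 4 values looked at in this way, 1 passed the limit, and chance passes about 1 in 20.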

How the results depend on the processing

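The chromosome 8 level of clone 8 stayed above 0 in both states under every setting run over all genes or brighter genes. In the deficient state it moved from 0.118 to 0.193 with the scanner's processed signals, 0.162 with detection in all channels, 0.086 with no detection filter, 0.079 against V6.5 cells and 0.294 over brighter genes; in the differentiating state it went from 0.096 to 0.148 with processed signals, 0.058 against the mean of the 4 control lines and 0.275 over brighter genes. Leaving out the arrays of 1 partner gave 0.118 to 0.141 and 0.081 to 0.113. Only the MEF and V6.5 arrays hold deficient clones, so leaving out a control line does not test the deficient level. The count of genes at least 0.3 higher became 417 with processed signals in the deficient state, 66 and 68 at 0.5 log2 units, and 157 to 324 and 188 to 320 without 1 partner. Shares over all genes are not given for these counts. With bins of 5 Mb the lowest bin was -0.012 in the deficient and -0.014 in the differentiating state, and the cause was not tested. Of such bins 7 held fewer than 20 genes, and no bin with 20 or more was below 0.024 (deficient) or 0.048 (differentiating). With no normalization between arrays 802 genes were higher and 24 lower in deficient against control iPSC, and 49 higher and 847 lower between states. All genes gave 17317 and 640, and 1008 and 17959. Against control lines, differentiating clones had 11 lower genes with no detection filter, 29 lower without the array of clone 8 and line 5, and 126 and 68 with slide as a block. All genes gave 575, 1146, and 2241 and 2625. The setting with slide as a block leaves the spread between control lines out of its error. Leaving out 1 line gave 126 to 206 higher and 242 to 373 lower in the first comparison, 0 to 57 and 0 to 63 in the second, and 0 to 391 and 0 to 260 in the third. Over all genes these ranges were 2395 to 4654 and 6161 to 8650, 0 to 1562 and 0 to 1954, and 0 to 8666 and 0 to 5521. With the replicate number as a block the levels of clone 8 were 0.118 and 0.086. The classes of signal, the setting without 1 array and all settings over brighter genes were chosen after seeing the data.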

Other observations

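Chromosome 3 showed the next largest departure among the autosomes. Over brighter genes clone B2 stood at 0.163 in the deficient state and at 0.149 in the differentiating state, beside A6 values of -0.090 and -0.099 and clone 8 values of -0.106 and -0.092, each against the other clones. These values were noticed after the data had been seen and were not tested.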
